A study of Mus musculus with 8 samples.

Results

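The solute carriers described here are the genes whose symbol is Slc, a family number, the letter a and a member number, taken from the table of read counts of the study. Carriers of the mitochondrial family Slc25a, the zinc families Slc30a and Slc39a, and Slc11a2, Slc40a1 and Slc7a11 were left out by the same rule, which used no measured value. It gave 159 members of the 13420 genes in the table. Of the 159, 41 had enough reads to be tested and 118 did not. The tested members held between 113 and 3676 reads over all libraries and together 83.6% of the 25369 reads on members, whereas no untested member had more than 176 reads and 43 had fewer than 10. The name plasma membrane carriers holds only in part. By textbook role, 25 members move solutes across the membranes of organelles such as Golgi, lysosomes and vesicles, and 6 are not carriers at all, among them the scaffold proteins Slc9a3r1 and Slc9a3r2, which share only the start of the symbol. The other roles were ion (37 members), amino acid (32), vitamin, nucleoside and choline (18), sugar (14), bile acid and organic ion (11), organic acid (7), lipid (4), amine and creatine (3) and unplaced (2).

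The study grew organoids of mouse small intestine, which are epithelial structures kept in a matrix gel, and asked how wild-type (WT) and cancer cells affect each other when they are mixed. WT organoids carried the mTmG reporter, which labels membranes with tdTomato, in C57BL/6. Cancer organoids, on C57BL/6 (F6), carried Dendra2 and, among other alleles, Villin-CreERT2, Apc fl/fl and Trp53 fl/R172H, written Tr53 in the labels. Villin drives Cre in the intestinal epithelium, so the alleles were recombined in epithelial cells, and the cultures hold no other tissue by design. Per the study's methods, the WT mice carried Rosa26-CreERT2 with the reporter and were of both sexes, and the cancer organoids came from male mice given tamoxifen. Both lines were grown in the same medium with EGF, Noggin and R-spondin1. Cells were cultured pure, or mixed at 2 parts WT to 1 part cancer, and live cells of each colour were sorted on day 3 after mixing. Pure WT (libraries A01 and A05), Mixed WT (A02 and A06), Pure Cancer (A03 and A07) and Mixed Cancer (A04 and A08) had 2 libraries each. The labels do not say whether these came from separate cultures, so p-values measure only the spread between these libraries, which may be technical. The lines also differ in more than the named alleles, including their reporter and founder animals, and these cannot be told apart from the alleles.

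Libraries held between 73109 reads (A02) and 4733121 reads (A04), and members took 0.17% to 0.305% of the reads of a library. Library A04 alone held 86.4% of all cancer reads, and 12 of the 41 tested members had 0 reads in A02. With 3 reads as the limit that a count of 0 allows, an unseen member can be limited to 0.566 CPM (Mixed Cancer), 1.04 CPM (Pure WT), 5.72 CPM (Pure Cancer) and 5.8 CPM (Mixed WT), for counting error only. CPM, here and for limits, are reads scaled to a common library total over the tested genes with TMM factors. Markers of epithelium were present in all 8 libraries, with a summed level of 4740 to 16100 CPM, and 7 of 7 were seen in both lines. Markers of enterocytes, the absorptive cells, summed to 781 to 1570 CPM in the WT libraries and 5.19 to 41.1 in the cancer libraries. Goblet cell markers summed to 2320 to 3490 and 7.63 to 21, and enteroendocrine markers to 184 to 334 and 0 to 0.783. Stem cell markers overlapped between the lines. They summed to 418 and 579 CPM (Pure WT), 78.6 and 195 CPM (Mixed WT), 89.2 and 135 CPM (Pure Cancer) and 233 and 420 CPM (Mixed Cancer). Paneth cell markers summed to 918 to 4190 in WT and 520 to 882 in cancer libraries, where Mmp7 held 91 to 2674 reads and Lyz1 0 to 14. Of other cell types, 0 of 3 endothelial markers had a row in the table, and 1 of 6 fibroblast markers had one, Col1a1, with 1 read in A04 and 0 elsewhere. Of 5 immune markers 1 had a row, Cd68, which was at 68.8 CPM in A07 and at 0 to 25.9 CPM elsewhere. In bulk samples such as these, fewer cells of a type and less RNA per cell cannot be told apart, and the part of cell type in the differences below was not tested. Trp53 had 1 and 24 reads in Pure Cancer against 195 and 576 in Pure WT, groups of unlike depth (543861 and 3008832 reads in all). It had 1 and 77 reads in Mixed WT and 344 and 9 in Mixed Cancer. Reads of Apc numbered 0 to 22 per library. The reads come from the 3′ ends of transcripts, which may lie outside the altered exons, so they do not check the alleles.

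Solute carriers are membrane proteins that move small molecules across a lipid bilayer, as uniporters, as cotransporters driven by an ion gradient, or as exchangers. In the small intestine, the brush border of the enterocyte takes up glucose with sodium through SGLT1 (Slc5a1), fructose through GLUT5 (Slc2a5), and amino acids and peptides through several families, and the basolateral side passes them to the blood, glucose through GLUT2 (Slc2a2). Dividing cells rely on carriers such as GLUT1 (Slc2a1), the glutamine carrier ASCT2 (Slc1a5) and the exchanger of large neutral amino acids LAT1 (Slc7a5), which works as a pair with the heavy chain 4F2hc (Slc3a2).

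The promoters of the 3 tested members that were lower in Pure Cancer than in Pure WT are shown because these genes passed the test between the lines in pure culture. Sequences are from RefSeq on GRCm38.p6, run 5′ to 3′ on the strand of the gene, and cover 250 bases before and 50 bases after an annotated start. Promoters were found for 115 of the 159 members, with 154 starts. Slc17a4, Slc7a5 and Slc48a1, described below, had no entry. Capitals mark matches to any of 6 motifs searched on both strands.
Slc5a1, chr5:33103969-33104268, plus strand: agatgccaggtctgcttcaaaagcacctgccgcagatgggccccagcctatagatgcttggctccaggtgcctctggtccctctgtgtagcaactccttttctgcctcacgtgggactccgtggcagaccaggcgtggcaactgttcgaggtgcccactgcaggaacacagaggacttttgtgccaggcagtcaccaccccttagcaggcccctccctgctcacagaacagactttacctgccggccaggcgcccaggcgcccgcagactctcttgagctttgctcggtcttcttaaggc
Slc1a4, chr11:20332664-20332963, minus strand: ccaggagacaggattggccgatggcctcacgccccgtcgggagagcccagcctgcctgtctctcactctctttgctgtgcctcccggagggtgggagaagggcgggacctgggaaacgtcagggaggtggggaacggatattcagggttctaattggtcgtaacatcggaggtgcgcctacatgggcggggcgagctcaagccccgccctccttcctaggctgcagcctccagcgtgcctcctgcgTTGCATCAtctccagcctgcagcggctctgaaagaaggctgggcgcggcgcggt
Slc12a8, the first of 3 starts, chr16:33517078-33517377, plus strand: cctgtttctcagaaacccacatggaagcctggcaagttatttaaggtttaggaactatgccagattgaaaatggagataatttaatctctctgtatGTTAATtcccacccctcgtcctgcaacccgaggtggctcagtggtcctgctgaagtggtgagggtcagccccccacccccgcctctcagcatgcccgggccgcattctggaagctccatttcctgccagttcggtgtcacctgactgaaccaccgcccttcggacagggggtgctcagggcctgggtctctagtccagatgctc

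The match in the Slc1a4 promoter, from 4 bases before the start, is to TGATGNAA, the form of element bound by ATF4, a factor of the amino acid response. TGATGNAA was found in 3.97% of the 32851 promoters of the same length and in 3.9% of the member promoters. The match in the printed Slc12a8 promoter is to GTTAAT, part of the site of HNF1 factors, found in 7.1% of all promoters and in 6.49% of member promoters. Of the Slc12a8 starts not printed, the second held a match to TTTATNG from 82 bases before the start, and the third held none. The Slc5a1 window held none of the 6 motifs. The other motifs were TGANTCA (AP-1, 7.81% of all and 5.84% of member promoters), CTTTGAT (TCF/LEF, 3.73% and 5.19%), TTTATNG (CDX2, 10.9% and 7.14%) and CAAAGTCCA (HNF4A, 0.475% and 0.649%). A match describes letters only, and no binding was measured.

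Among the sugar carriers, Slc5a1 (SGLT1; chromosome 5, 33104219 to 33162870, GRCm38, plus strand, 15 exon blocks) had reads in every WT library and in no cancer library. Pure WT was at 70.5 and 56.8 CPM and Mixed WT at 39.3 and 65.7 CPM, from 77, 101, 3 and 29 reads. It overlaps 5033423K11Rik on the opposite strand and Gm15936 on its own. All 4 cancer libraries were at 0, so the lines did not overlap. Against the limit of 3 reads over the group, Slc5a1 was at least 10.8-fold lower in Pure Cancer than in Pure WT and at least 109-fold lower in Mixed Cancer than in Mixed WT. Both differences passed the test (edgeR's quasi-likelihood test with Benjamini-Hochberg adjustment over 5264 genes, adjusted p = 0.00327 and 0.000216). The pure difference was called with any 1 library left out (highest adjusted p = 0.0307). The mixed difference missed the threshold without A04, the deepest library (adjusted p = 0.103), and the bound then was 3.97-fold, against A08 alone. It was called without A06, when the 3 reads of A02 stood alone for Mixed WT. The pure bound was 3.94-fold without A07 and 6.9-fold without A03. GLUT1 (Slc2a1), the facilitative glucose carrier of most dividing cells, stood at 70.5 and 25.3 CPM (Pure WT), 78.6 and 122 CPM (Mixed WT), 110 and 98.8 CPM (Pure Cancer) and 174 and 67.4 CPM (Mixed Cancer). Pure WT lay under Pure Cancer and under Mixed WT without overlap, while the mixed groups overlapped, and no comparison of Slc2a1 passed (log2 fold change of Pure Cancer over Pure WT 1.14, SE 0.63, edgeR adjusted p = 0.327). Slc50a1, a sugar efflux carrier, ranged from 66.5 to 157 CPM and differed little between pure lines (log2 fold change 0.03, SE 0.55, edgeR adjusted p = 0.981). GLUT5 (Slc2a5) and GLUT2 (Slc2a2), the fructose carrier and the basolateral exit route for glucose, had too few reads to be tested, 35 and 21 in all, and every read was from a WT library.

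Among amino acid carriers, Slc1a4 (ASCT1; chromosome 11, 20302180 to 20332713, minus strand), an exchanger of alanine, serine, cysteine and threonine, was lower in cancer cells. Pure WT was at 86.9 and 83.7 CPM and Mixed WT at 78.6 and 113 CPM, against 5.25 and 15 CPM for Pure Cancer and 14.5 and 15.6 CPM for Mixed Cancer. Every cancer library lay under every WT library. Group means were 85.3 ± 2.26 (SD, n = 2) in Pure WT and 10.1 ± 6.87 in Pure Cancer. The log2 fold change was -2.94 (SE 0.79) between pure and -2.75 (SE 0.73) between mixed groups, with edgeR adjusted p of 0.0164 and 0.0197. Leaving out any of the 4 pure libraries ended the pure call (edgeR adjusted p = 0.0812 without A01, 0.122 without A05, 0.1 without A03 and 0.052 without A07), and leaving out A04, A05, A06 or A08 ended the mixed call (edgeR adjusted p = 0.256, 0.0748, 0.185 and 0.083). The sign stayed negative in each. The related ASCT2 (Slc1a5), the glutamine exchanger, was at 182 and 135 CPM (Pure WT), 26.2 and 154 CPM (Mixed WT), 63 and 68.8 CPM (Pure Cancer) and 85.5 and 114 CPM (Mixed Cancer), and was not called (pure log2 fold change -1.26, SE 0.61, edgeR adjusted p = 0.245).

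LAT1 was called higher in cancer cells in the mixed comparison, and its partner, which stood higher in every cancer library, was near the threshold between pure groups. Slc7a5 (LAT1; chromosome 8, 121881150 to 121907694, minus strand, overlapped on the opposite strand by Gm20388) was at 60.4 and 42.2 CPM (Pure WT), 13.1 and 11.3 CPM (Mixed WT), 84 and 68.8 CPM (Pure Cancer) and 156 and 109 CPM (Mixed Cancer). All cancer libraries were above all WT libraries, and the Mixed WT libraries were lowest, from 1 and 5 reads. Mixed Cancer exceeded Mixed WT by 3.52 on the log2 scale (SE 0.80, edgeR adjusted p = 0.0064), whereas Pure Cancer exceeded Pure WT by 0.57 (SE 0.61, adjusted p = 0.677). The mixed call was lost without A04 (edgeR adjusted p = 0.0896) and without A06 (0.11). Slc3a2 (4F2hc, also the heavy chain of other exchangers; chromosome 19, 8706882 to 8723369, minus strand) held the most reads of all members. It was at 160 and 152 CPM (Pure WT), 131 and 229 CPM (Mixed WT), 268 and 560 CPM (Pure Cancer) and 549 and 394 CPM (Mixed Cancer), so the lines did not overlap either. Its log2 fold change was 1.42 (SE 0.48) between pure and 1.33 (SE 0.50) between mixed groups and missed the threshold in both (edgeR adjusted p = 0.0638 and 0.138). The pure difference passed in 8 of 16 alternatives, among them DESeq2 (adjusted p = 0.0341) and median-of-ratios factors (edgeR adjusted p = 0.0424), and over all 16 the adjusted p ran from 0.0155 to 0.602. The mixed difference of Slc3a2 passed in 0 of 16 alternatives. Over the last 500 bases of the annotated transcripts of Slc3a2, 2.41% of windows of 50 bases also occur in transcripts of other genes.

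The other amino acid carriers that were tested did not pass. Slc38a1, a sodium-coupled carrier of glutamine, lay at 38.2 to 77 CPM in WT and 5.25 to 29.9 in cancer libraries without overlap (edgeR adjusted p = 0.443 between pure and 0.327 between mixed groups). The taurine carrier Slc6a6 was at 47.6 and 45.5 CPM in Pure WT and 10.5 and 8.98 CPM in Pure Cancer and missed the threshold (edgeR adjusted p = 0.131). Slc38a2 was at 30.2 to 58.9 CPM in WT and 10.4 to 56.9 in cancer libraries, and the arginine and lysine carrier Slc7a1 at 40.8 to 58.5 and 20.7 to 59.9, so that the lines overlapped for both. Carriers of the brush border had few reads. Slc7a9, the light chain of the cystine and dibasic amino acid exchanger, had 65 reads in WT libraries and 0 in cancer libraries. Slc1a1, a glutamate carrier, had 33 reads in WT libraries and 1 in a cancer library. The peptide carrier Slc15a1 had 3 reads in all, Slc6a19 had 6 and Slc3a1 had 1. Outside the brush border, Slc7a8 had 11 reads. Over the 32 amino acid members, the summed level ranged from 511 to 816 CPM in WT and from 493 to 1010 in cancer libraries and overlapped.

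The ion carriers as a whole were less abundant in the cancer libraries. Their 37 members summed to 456 and 626 CPM (Pure WT) and 524 and 514 CPM (Mixed WT), against 110 and 344 CPM (Pure Cancer) and 248 and 197 CPM (Mixed Cancer). The sum takes in every member and was not tested. Without Slc12a2 and Slc12a8, it was 258 to 319 in WT and 78.7 to 296 in cancer libraries, which overlap. Slc12a8 (chromosome 16, 33517328 to 33664135, plus strand), a less studied member of the cation and chloride cotransporter family, was at 124 and 232 CPM in Pure WT and 26.2 and 2.99 CPM in Pure Cancer, a log2 fold change of -3.83 (SE 1.02, edgeR adjusted p = 0.0153). Over the last 500 bases of its transcripts, 2.2% of windows are shared with other genes. The change was -5.90 without A03, and the call was lost without A05 (edgeR adjusted p = 0.0755), without A07 (0.0545) and with DESeq2 (0.218). In mixed cultures, Slc12a8 was 0 and 129 CPM in WT and 6.85 and 31.1 in cancer cells, with the groups overlapping (edgeR adjusted p = 0.124, passed in 7 of 16 alternatives), and the sign turned without A06, when the 0 reads of A02 stood alone for Mixed WT. NKCC1 (Slc12a2), the basolateral sodium, potassium and chloride cotransporter of secretory epithelium, was at 65.9 and 135 CPM (Pure WT), 249 and 65.7 CPM (Mixed WT), 5.25 and 44.9 CPM (Pure Cancer) and 26.4 and 10.4 CPM (Mixed Cancer). All cancer libraries lay under all WT libraries, and the test missed the threshold by a little between mixed groups (log2 fold change -2.70, SE 0.83, edgeR adjusted p = 0.0527) and by more between pure ones (-1.86, SE 0.81, adjusted p = 0.179). The mixed difference passed in 9 of 16 alternatives, among them DESeq2 (adjusted p = 0.0169) and median-of-ratios factors (edgeR adjusted p = 0.0403), over a range of adjusted p from 0.00521 to 0.335, and the pure one in 2 of 16.

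Slc17a4, an organic anion and phosphate family carrier of the intestine (chromosome 13, 23895890 to 23915009, minus strand), was at 15.6 and 40.5 CPM (Pure WT) and 0 and 54.4 CPM (Mixed WT), and at 0 in all cancer libraries. It was at least 5.42-fold lower in Pure Cancer and at least 82-fold lower in Mixed Cancer, and the mixed difference passed (edgeR adjusted p = 0.00356) while the pure one did not (0.058, passed in 6 of 13 alternatives). The mixed call rests on the 24 reads of A06, without which both groups were at 0, and it was lost without A04 (adjusted p = 0.31) and with DESeq2 (0.598). Without A04 the mixed bound was 2.98-fold, and without A07, A05 or A03 the pure bound was 1.97-fold, 2.72-fold or 3.45-fold. The cotransporter Slc12a7 was at 16.3 to 39.3 CPM in WT and 9.78 to 36.7 in cancer libraries, and the copper carrier Slc31a1 at 28.1 to 144 and 20.7 to 53.9, with the lines overlapping for both. The sodium and proton exchanger Slc9a2 had 25 reads, the phosphate carriers Slc20a1 and Slc34a2 had 141 and 1, the bicarbonate cotransporter Slc4a4 had 58, and the anion exchanger Slc26a6 had 8. Slc26a3, the chloride and bicarbonate exchanger of the intestinal surface, had 32 reads, all in WT libraries.

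Lactate and other organic acids cross the plasma membrane through the monocarboxylate carriers. Slc16a3 (MCT4) had the most reads of this role and stood at 61.3 and 15.2 CPM (Pure WT), 52.4 and 36.2 CPM (Mixed WT), 142 and 53.9 CPM (Pure Cancer) and 170 and 36.3 CPM (Mixed Cancer). Slc16a1 (MCT1) was 32 and 45, 39.3 and 70.2, 99.7 and 44.9, and 99 and 67.4 in the same order. Both overlapped between the lines, and neither was called between pure (edgeR adjusted p = 0.342 and 0.509) or mixed groups (0.433 and 0.799). Among carriers of vitamins, nucleosides and choline, the nucleoside carrier Slc29a1 was at 152 and 173 CPM (Pure WT), 78.6 and 34 CPM (Mixed WT) and 31.1 to 69.3 in cancer libraries (pure log2 fold change -1.78, SE 0.64, edgeR adjusted p = 0.0868, passed in 4 of 16 alternatives). The folate carrier Slc19a1 was 51.3 and 45 in Pure WT and 5.25 and 5.99 in Pure Cancer (log2 fold change -3.05, SE 1.02, edgeR adjusted p = 0.0604, passed in 6 of 15 alternatives), and 13.1 and 63.4 in Mixed WT. The proton-coupled folate carrier Slc46a1 had 62 reads, Slc44a1 had 27 and Slc28a2 had 4. Carriers of bile acids were barely represented. Slc10a3, an orphan member of the bile acid family, and Slc22a18, an organic cation carrier, were the tested members of that role. Slc10a1, Slc10a2, Slc5a8, Slc6a14, Slc6a20a and Slc9a3 had no row among the 159 members. Slc22a18 was 39.3 to 70.2 CPM in WT and 12 to 28.2 in cancer libraries, without overlap and without a call (edgeR adjusted p = 0.171 and 0.505). The fatty acid carrier Slc27a4 was at 6.8 to 32.9 CPM in WT and 20.7 to 47.2 in cancer libraries, which overlap. Mixed WT, at 13.1 and 6.8 from 1 and 3 reads, lay under the other 3 groups, but so few reads do not place it. The creatine carrier Slc6a8 had 141 reads and was not tested, and the urea carrier Slc14a1 had 3.

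Among members inside the cell, Slc48a1 (HRG1; chromosome 15, 97778520 to 97792692, plus strand, overlapped on the opposite strand by Hdac7), which moves heme out of endosomes and lysosomes, was higher in cancer cells. It stood at 29.3 and 20.8 CPM (Pure WT), 0 and 20.4 CPM (Mixed WT), 110 and 86.8 CPM (Pure Cancer) and 118 and 104 CPM (Mixed Cancer). Its lines did not overlap, and its spread within each cancer group was small against the gap. The mixed log2 fold change was 2.84 (SE 0.80, edgeR adjusted p = 0.0304) and the pure 1.97 (SE 0.66, adjusted p = 0.0629). The mixed call was lost without A02 (edgeR adjusted p = 0.0758), without A04 (0.165) and with only the 4 libraries compared (0.0598), and without A06 the change was 10.13, with A02 at 0 reads. The pure difference passed in 8 of 15 alternatives, among them median-of-ratios and upper-quartile factors (edgeR adjusted p = 0.0471 and 0.0487). The scaffold Slc9a3r1, which ties exchangers to the brush border, was 39.3 to 117 in WT and 62.2 to 115 in cancer libraries.

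**Figure D1:**
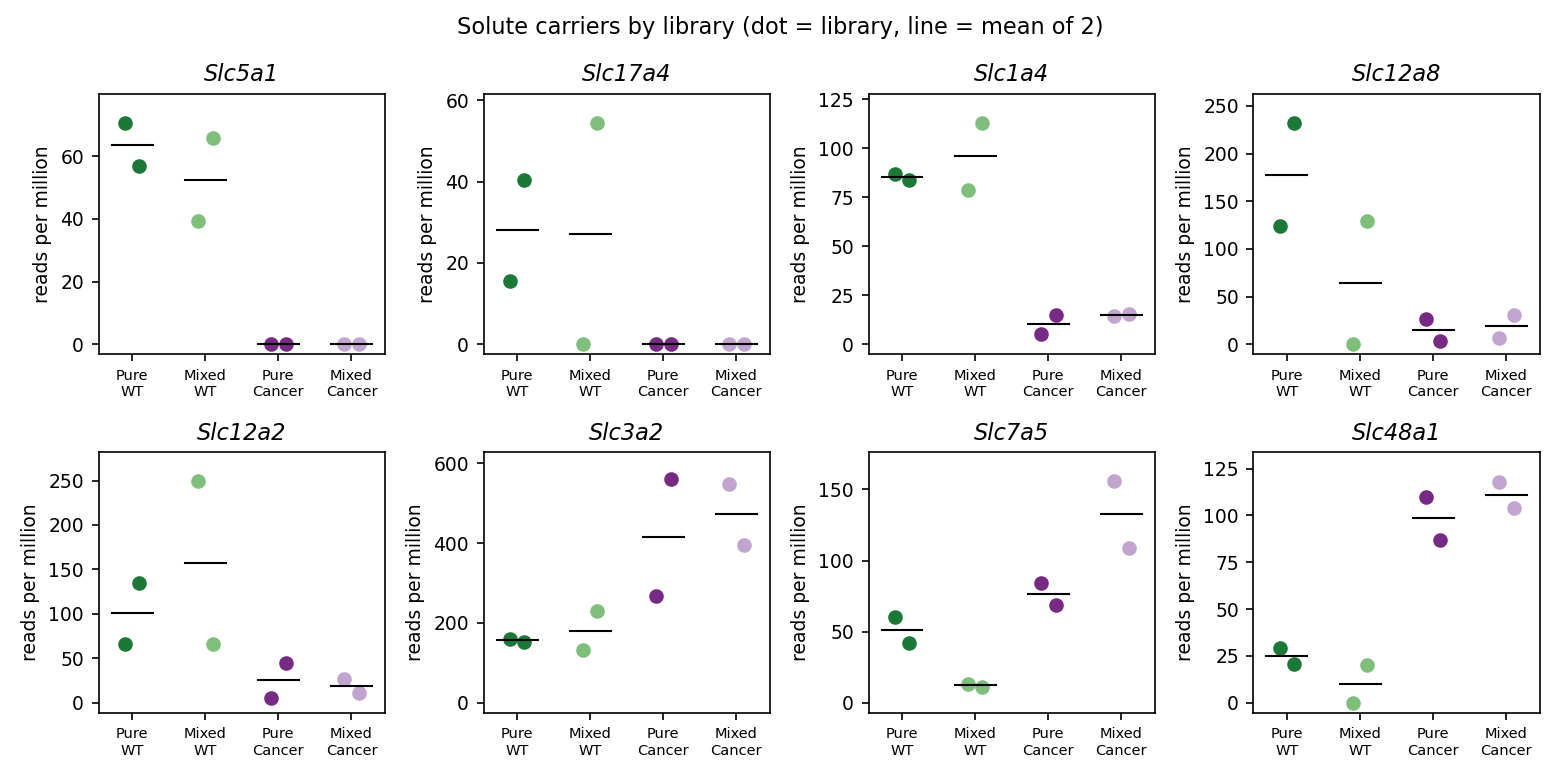
Level of 8 solute carriers in CPM (vertical axes, linear from 0), with a dot for each of the 2 libraries of a group and a line at their mean. Slc5a1 and Slc17a4 are at 0 in all 4 cancer libraries, while Slc3a2, Slc7a5 and Slc48a1 are higher in every cancer library than in every WT library.

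Counted over all 41 tested members, Pure Cancer against Pure WT gave 3 lower (Slc5a1, Slc1a4 and Slc12a8) and 0 higher, a share of 7.32% lower beside 4.84% of the 5264 genes, and 5.11% of all genes were called higher. At an unadjusted p under 0.05, edgeR gave 4 higher and 10 lower (9.76% and 24.4%, against 10.2% and 10.3% of all genes). After adjustment, DESeq2 called Slc3a2 and Slc48a1 higher and Slc1a4 and Slc5a1 lower, 4.88% each way beside 5.26% and 3.97% of all genes. Mixed Cancer against Mixed WT gave 3 lower (Slc5a1, Slc17a4 and Slc1a4) and 2 higher (Slc7a5 and Slc48a1), or 7.32% and 4.88%, beside 4.41% and 2.01% of all genes. At an unadjusted p under 0.05, edgeR gave 5 higher and 6 lower (12.2% and 14.6%, against 7.94% and 8.47% of all genes). DESeq2 called Slc7a5 and Slc48a1 higher and Slc5a1, Slc1a4 and Slc12a2 lower after adjustment (4.88% and 7.32%, beside 1.92% and 4.31%). Slc5a1 and Slc1a4 were lower in both comparisons, which share no library but come from a common fit with a shared estimate of the spread. The members' median log2 fold change was -0.36 between pure and -0.11 between mixed groups, beside -0.05 and 0.12 over all tested genes. All 4 cancer libraries lay under all 4 WT libraries for 5 members (12.2%, against 8.11% of all genes) and above them for 4 (9.76%, against 8.24%), the last including Slc7a6os, which is not a carrier. Each share of members above 0% rests on 2 to 10 members. The number of members called depends on 1 library in places. It was 1 without A05, 9 without A02 or A06 and 5 without A08 between pure groups, and 0 without A04, 3 without A06 and 8 without A03 or A07 between mixed groups.

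**Figure D2:**
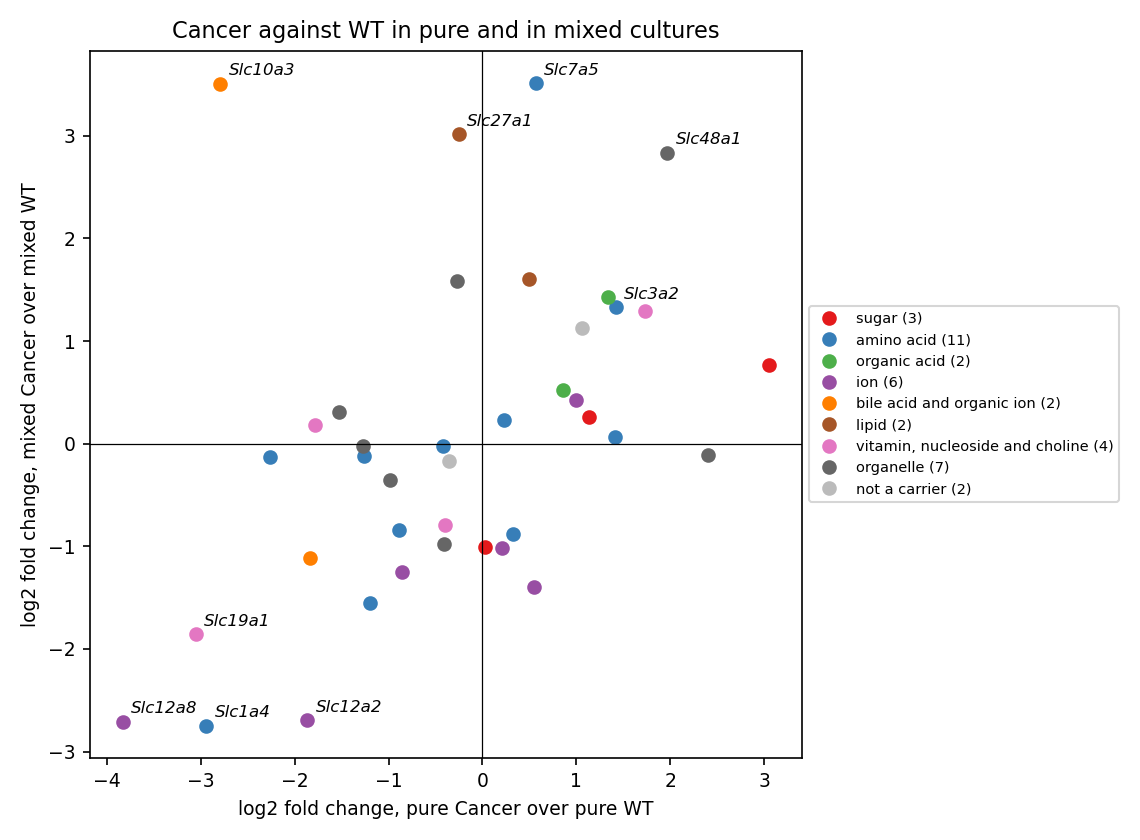
Log2 fold change of cancer over WT cells for 39 tested members, in pure cultures (horizontal axis) and in mixed cultures (vertical axis), coloured by role with the number of members in brackets. Slc1a4 and Slc12a8 lie far down and left, Slc48a1 and Slc3a2 up and right, and Slc10a3 changes sign; Slc5a1 and Slc17a4 are left out because their fold has only a lower bound.

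Several carriers had reads in WT libraries and none in cancer libraries. At least 10 reads over the WT libraries and 0 over the cancer libraries were found for 11 of the 159 members (6.92%), against 1.67% of the 13420 genes. This threshold was set after seeing the data. The limit for 0 reads over the cancer libraries is 0.515 CPM. Slc5a1 (210 reads), Slc17a4 (113), Slc7a9 (65), Slc2a5 (35), Slc26a3 (32) and Slc2a2 (21) are described above. Slc27a2, a fatty acid carrier and very long chain acyl-CoA synthetase, had 59 reads, at least 33.8-fold above that limit. Slc13a1, the sodium and sulfate cotransporter, had 21, the bicarbonate carrier Slc4a5 and the serotonin carrier Slc6a4 had 17 each, and Slc16a12 had 15. Slc7a9 and Slc2a5 were at least 37.3-fold and 20.1-fold higher in WT cells. These members were picked by their 0 cancer reads, so the bounds describe them and test nothing. Without A04 the limit was 4.18 CPM, and these bounds were 4.16-fold for Slc27a2, 4.59-fold for Slc7a9 and 2.47-fold for Slc2a5. Without A05 the bound of Slc27a2 was 16.9-fold. All of these bounds pool pure and mixed cultures. Pure WT gave 83.6% of the WT reads, whereas A04, of Mixed Cancer, gave 86.4% of the cancer reads. Between pure groups alone, the bounds were 3.35-fold for Slc27a2, 3.47-fold for Slc7a9 and 2.07-fold for Slc2a5. The count was 9 without A01 and 8 without A05, 15 at a minimum of 5 reads and 8 at 20, and rose to 21 without A04, which holds most cancer reads. Enterocyte markers as a sum were also lower in the cancer libraries, as given above, though not each of the 11 markers was. The brush border phosphatase Alpi had 2 and 1 reads in Pure Cancer against 492 and 669 in Pure WT, in libraries of unlike depth. The disaccharidase Sis was at 6.41 and 16.9 CPM in Pure WT and at 0 in every other library. With 0 reads, A03 and A07 alone limit a gene to 15.7 and 8.98 CPM. Anpep was at 4.58 and 3.37 CPM in Pure WT and 5.25 and 0 CPM in Pure Cancer. The part of enterocyte markers in the result was not tested. In the opposite direction, 3 members (1.89%) had at least 10 reads over the cancer libraries and 0 over the WT libraries, near the 1.77% of all genes. They included Slc4a11, a borate and proton carrier family member with 9 reads in A07 and 60 in A04, and Slc36a4 with 11 reads, all in A04.

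**Figure D3:**
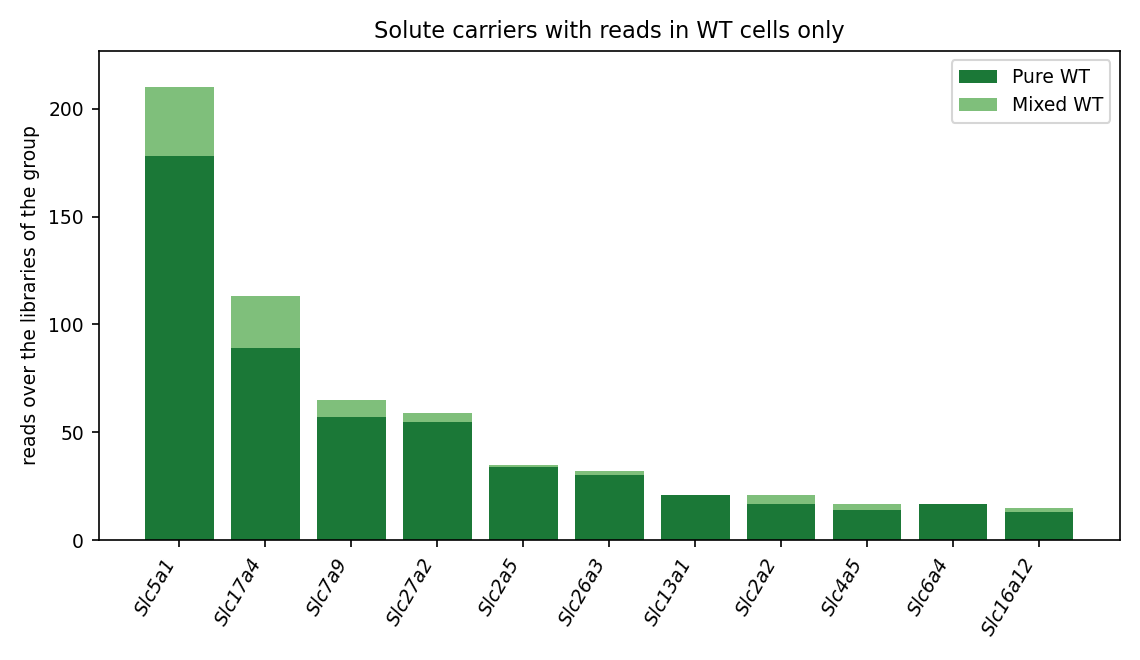
Reads over the 2 libraries of each group (vertical axis, stacked from 0) for the 11 members with at least 10 reads in WT cells and 0 in cancer cells. Slc5a1 leads with 210 reads and Slc16a12 is last with 15, and the bars are mostly reads of Pure WT.

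The next comparison asked whether growth beside cells of the other line goes with a change in carriers. No member was called between Mixed WT and Pure WT (0 of 41 with edgeR and with DESeq2), beside 0.741% of all genes. At an unadjusted p under 0.05, 6 members passed with edgeR (14.6%, against 9.67% of all genes) and 6 with DESeq2. With edgeR, Slc10a3, Slc27a1, Slc29a1 and Slc7a5 were on the lower side and Slc45a3 and Slc7a14 on the higher, and none of the 6 held up after adjustment. Slc7a5 had -2.11 on the log2 scale (SE 0.80, edgeR adjusted p = 0.333), from 60.4 and 42.2 to 13.1 and 11.3 CPM, with no overlap. Slc29a1 had -1.75 (SE 0.69, edgeR adjusted p = 0.358). Slc10a3 was at 25.6 and 32 CPM (Pure WT) and at 0 and 2.27 CPM (Mixed WT), the last from a single read (edgeR adjusted p = 0.361). Slc27a1, a fatty acid carrier, had 19.2 and 38.2 against 0 and 6.8. Slc45a3, a sugar carrier family member, had 2.75 and 1.12 against 0 and 24.9 and so overlapped, and Slc7a14, a lysosomal protein of the cationic amino acid family, had 10.1 and 8.43 against 78.6 and 18.1. Slc5a1 and Slc1a4, lower in cancer cells, differed little between the WT groups (Slc5a1 log2 fold change -0.18, SE 0.78, and Slc1a4 0.23, SE 0.63, edgeR adjusted p = 0.976 and 0.952). With standard errors of this size, modest changes of single carriers were not detectable at this depth.

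Between Mixed Cancer and Pure Cancer, 0 of the 41 members passed with edgeR or DESeq2, and 0 passed an unadjusted p under 0.05 with either tool. Over all genes, 0% passed after adjustment and 1.31% without. The largest tested change was 2.44 on the log2 scale in Slc10a3 (SE 1.37, edgeR adjusted p = 1), from 10.5 and 0 CPM in Pure Cancer to 12.9 and 41.5. Slc7a5 had 0.83 (SE 0.61), Slc48a1 0.19 (SE 0.64) and Slc3a2 0.19 (SE 0.47). The difference between the changes in WT and cancer cells was called for 0 of 41 members with edgeR and with DESeq2, beside 0.076% of all genes. At an unadjusted p under 0.05, 4 members passed (9.76%, against 7.28% of all genes), and 3 with DESeq2. These 4 were Slc7a5, Slc10a3, Slc27a1 and Slc29a1. For Slc7a5 the WT change lay 2.95 below the cancer change on the log2 scale (SE 1.01, edgeR adjusted p = 0.509), since both mixed WT libraries were under both pure ones and both mixed cancer libraries were above both pure ones.

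**Figure D4:**
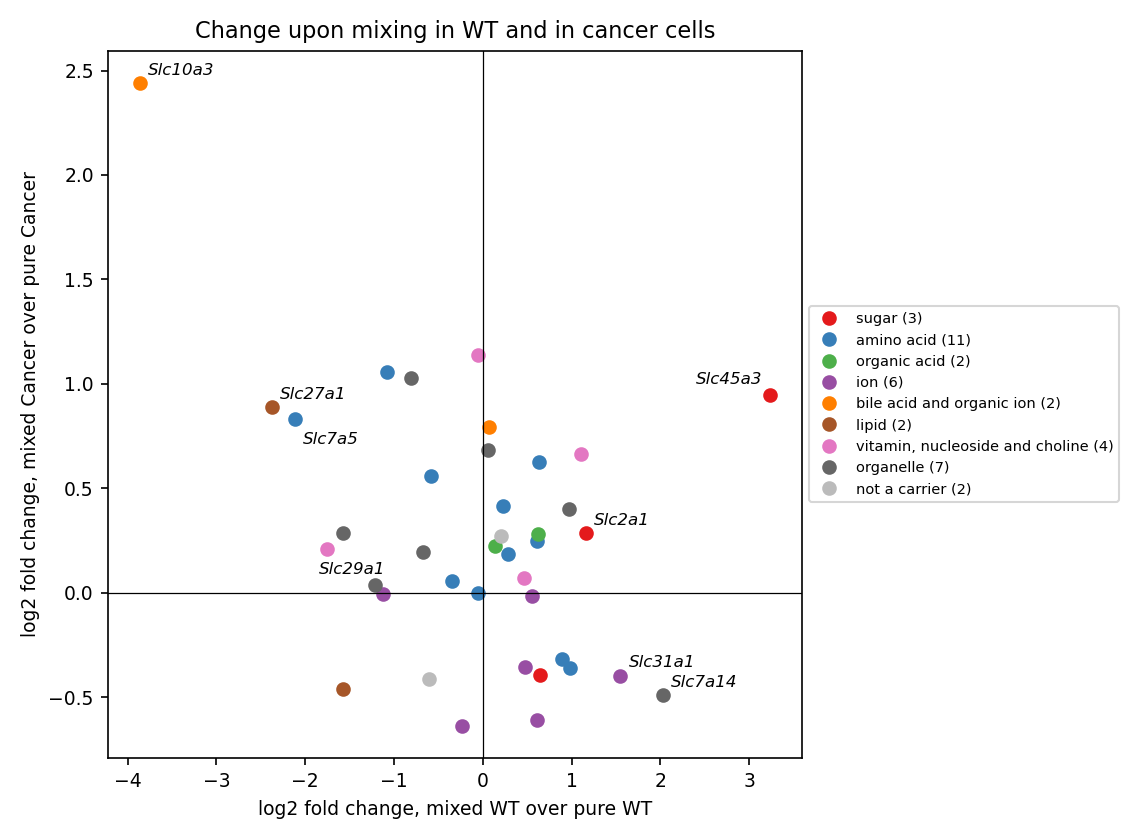
Log2 fold change upon mixing in WT cells (horizontal axis) and in cancer cells (vertical axis) for 39 tested members, coloured by role. No member passed an adjusted p of 0.05 on either axis; Slc10a3 stands apart at -3.86 and 2.44 with 1 read in Mixed WT and 2 in Pure Cancer.

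**Figure D5:**
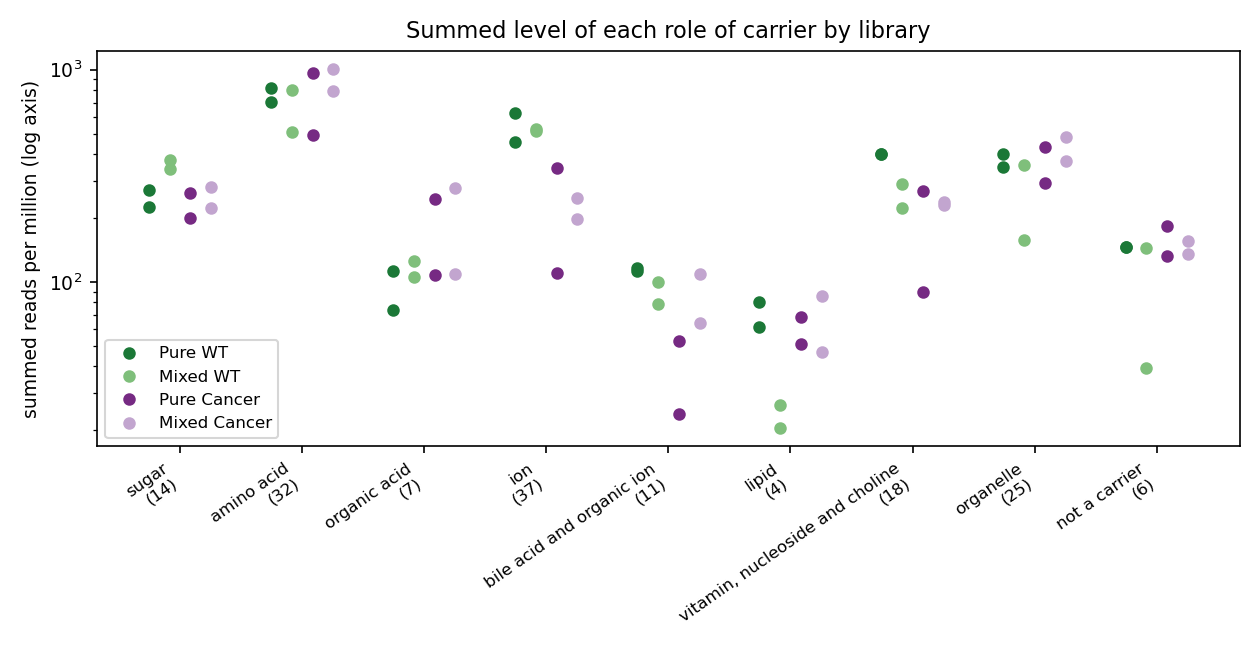
Summed level of the members of each role in CPM (vertical log axis) by library, with the number of members in brackets and a dot for each library coloured by group. The ion carriers lie at 456 to 626 in the WT libraries and at 110 to 344 in the cancer libraries, while the other roles shown overlap between the lines.

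Other genes of membrane transport were read from a list of 36, of which 32 had a row and 14 were tested. Between pure groups, 2 were higher and 1 lower in cancer cells, beside 5.11% and 4.84% of all genes, and between mixed groups 1 was higher and 2 lower, beside 2.01% and 4.41%. Of the list, 0 were called upon mixing or in the difference of changes. Atp1b1, a beta subunit of the sodium pump that keeps the gradient for carriers such as SGLT1, was at 285 and 378 CPM in Pure WT and 31.5 and 50.9 CPM in Pure Cancer. Its log2 fold change was -2.96 (SE 0.55, edgeR adjusted p = 0.00067) between pure and -2.87 (SE 0.54, adjusted p = 0.00098) between mixed groups. Bsg (basigin), the chaperone of the monocarboxylate carriers, was 1250 and 1220 CPM in Pure WT and 4280 and 5420 CPM in Pure Cancer. Its pure log2 fold change was 1.97 (SE 0.44, edgeR adjusted p = 0.00375). Mixed WT was at 1280 and 3340 CPM and Mixed Cancer at 3640 and 5820 CPM. The mixed difference of Bsg was not called (log2 fold change 1.02, SE 0.43, edgeR adjusted p = 0.207). Slco4a1, an organic anion carrier, rose by 3.49 (SE 0.91) in pure and 5.28 (SE 1.40) in mixed cultures on the log2 scale, with edgeR adjusted p of 0.0134 and 0.0201. Abcg5, a sterol exporter, had 12.8, 27, 26.2 and 11.3 CPM in the WT libraries and 0 in the cancer libraries. It was called lower in the mixed comparison (edgeR adjusted p = 0.0276), where Mixed WT held only 2 and 5 reads. The pure difference of Abcg5 was not called (edgeR adjusted p = 0.106).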

How the data were processed

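RNA of sorted cells was measured in 8 libraries of 4 groups by CEL-Seq, a method of sequencing 3′ ends. Per the methods of the study, BWA placed the second read of each pair on RefSeq transcripts of mm10, reads with several equal placements were dropped, and featureCounts assigned the rest to genes. The authors deposited counts of reads per gene without normalization, counts of different molecule barcodes per gene, and estimated counts of transcripts made from the barcode counts. Barcode counts level off for abundant genes, so read counts were used and the other tables served as alternatives, with estimated counts rounded. Read counts include amplification copies, so intervals and limits cover counting error only. A deposited DESeq2 (1.22.2) table of mixed against pure WT cells was not used. Rows of eGFP and a spike-in were dropped. Counts cover all members, but 1 allele of the cancer line and some single members are not reported here.

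Groups were taken from the labels. Read counts were fitted with edgeR 4.0.16 in R 4.3.3 by quasi-likelihood, with TMM factors, filterByExpr at a minimum count of 10 and all 8 libraries. Adjusted p-values are Benjamini-Hochberg over 5264 genes, with calls under 0.05. SE was obtained from the log2 fold change and the F statistic. CPM use TMM factors; limits and bounds use pooled reads of a group and 3 reads. Libraries of a group differed by more than counting noise (chi-square per degree of freedom 8.46 to 10). The fitting code was tested on simulated counts. Named members are those called in any comparison, the member of each role with the most reads, and a list of gut and growth carriers. The members, roles and lists were chosen with earlier results of these data known. Positions are from GENCODE vM21 (GRCm38), which holds 158 of the 159 members, and promoters from RefSeq (GRCm38.p6). Alternatives were a minimum count of 50 or none, median-of-ratios and upper-quartile factors, the other count tables, only the 4 libraries compared, DESeq2 1.42.0, and each library left out.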

Additional observations from a re-analysis of the deposited data

How the results depend on the processing

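The count of members called upon mixing, in WT or cancer cells, and in the difference of these changes was 0 in every setting tried. The count for Pure Cancer against Pure WT was 3 as reported. It was 5 with median-of-ratios or upper-quartile factors, 6 without a filter, 8 on barcode counts, 7 on transcript counts, 9 with only the 4 libraries compared, and 1 to 9 with each library left out. For Mixed Cancer against Mixed WT it was 5 as reported, 9 without a filter, 0 at a minimum count of 50, 3 with only the 4 libraries compared, and 0 to 8 with each library left out. At a minimum count of 50, only 6 members were tested. Signs were compared between settings only for members with an unadjusted p under 0.05 in the comparison at hand. Among these, signs turned only without A06, which leaves the 73109 reads of A02 for Mixed WT. Over all settings, Slc12a8 ranged from -3.52 to 6.90 and Slc19a1 from -2.30 to 0.0079 between mixed groups on the log2 scale. Slc45a3 ranged from -4.30 to 3.79 between WT groups. Without A06, the median of all genes between mixed groups was 0.69. The number of members with reads in WT cells alone, 11 as reported, was 8 to 21 over alternatives. These, like the reported threshold, were chosen after seeing the data. Causes of these changes were not tested. No paired analysis was run, because the labels give each library a number of its own (A01 to A08), with none shared between groups. Both colours were sorted from mixed cultures, so Mixed WT and Mixed Cancer libraries may share cultures, which the labels do not pair.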
